A study of Rattus norvegicus with 28 samples.

Results

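The genes described here are 4 members of the angiotensin and corticosteroid receptor systems in rat brain: Agt (ENSRNOG00000018445), Agtr1a (ENSRNOG00000018346), Nr3c1 (ENSRNOG00000014096) and Nr3c2 (ENSRNOG00000034007). They were chosen by identifier, with earlier results of these data known, and all 4 were found among the 32623 genes of the count tables. The study asked how genetic background bears on the effect of the estrous cycle on the brain transcriptome. RNA-seq was carried out on brains of 2 inbred rat strains, BN-Lx/Cub and SHR/OlaIpcv, the latter being the spontaneously hypertensive rat. For each strain there were 4 females at pre-estrus, 4 at estrus and 4 at post-estrus, and 2 males, which gives 28 libraries. No treatment is named in the sample labels, the extraction protocol calls the animals naive to alcohol, and ages are not given. The sample labels call the libraries of a group biological replicates.

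Agt encodes angiotensinogen, the precursor protein from which renin and angiotensin-converting enzyme release angiotensin II, and in brain it is made mostly by astrocytes. Agtr1a encodes the angiotensin II type 1a receptor, a G protein-coupled receptor found on restricted groups of neurons that control blood pressure, thirst and the release of pituitary hormones. Nr3c1 and Nr3c2 encode the glucocorticoid and mineralocorticoid receptors, which are steroid-activated transcription factors; the mineralocorticoid receptor binds corticosterone with the higher affinity and is strong in hippocampus. These are averages over the brain, so fewer cells of a type and less RNA per cell cannot be told apart.

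Libraries held 43410562 to 90667237 expected counts, spike-in RNAs included. Levels are given as CPM, counts relative to the library total, scaled by the trimmed mean of M-values (TMM) over genes, spike-ins left out. A single gene, ENSRNOG00000043866, took 13.2% to 35.9% of the gene counts of a library, and this share averaged 28.6% ± 5.62 (SD, n = 12) in BN-Lx females and 23.1% ± 4.40 (SD, n = 12) in SHR females. Each sample description ends in b35 (15 libraries) or b37 (13 libraries), which is not explained in the labels and was kept as a term in the models below unless a single suffix is named. The files do not pair identifiers with names, so markers of cell types could not be checked and other genes of the 2 systems were not looked up.

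On the length-corrected TPM scale the order of the 4 genes was the same in 28 of 28 libraries. Agt was the most abundant, at 32.7 ± 11.3 TPM (SD, n = 28), followed by Nr3c1 at 10.3 ± 3.10 TPM, Nr3c2 at 5.89 ± 1.28 TPM and Agtr1a at 0.146 ± 0.086 TPM. The genes differed in how much they varied among libraries: the coefficient of variation of the CPM level was 33.4% for Agt, 51.1% for Agtr1a, 20.5% for Nr3c1 and 8.54% for Nr3c2. Agtr1a rested on 0 to 66 counts per library. All 4 genes passed the filter on low counts.

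**Figure D1:**
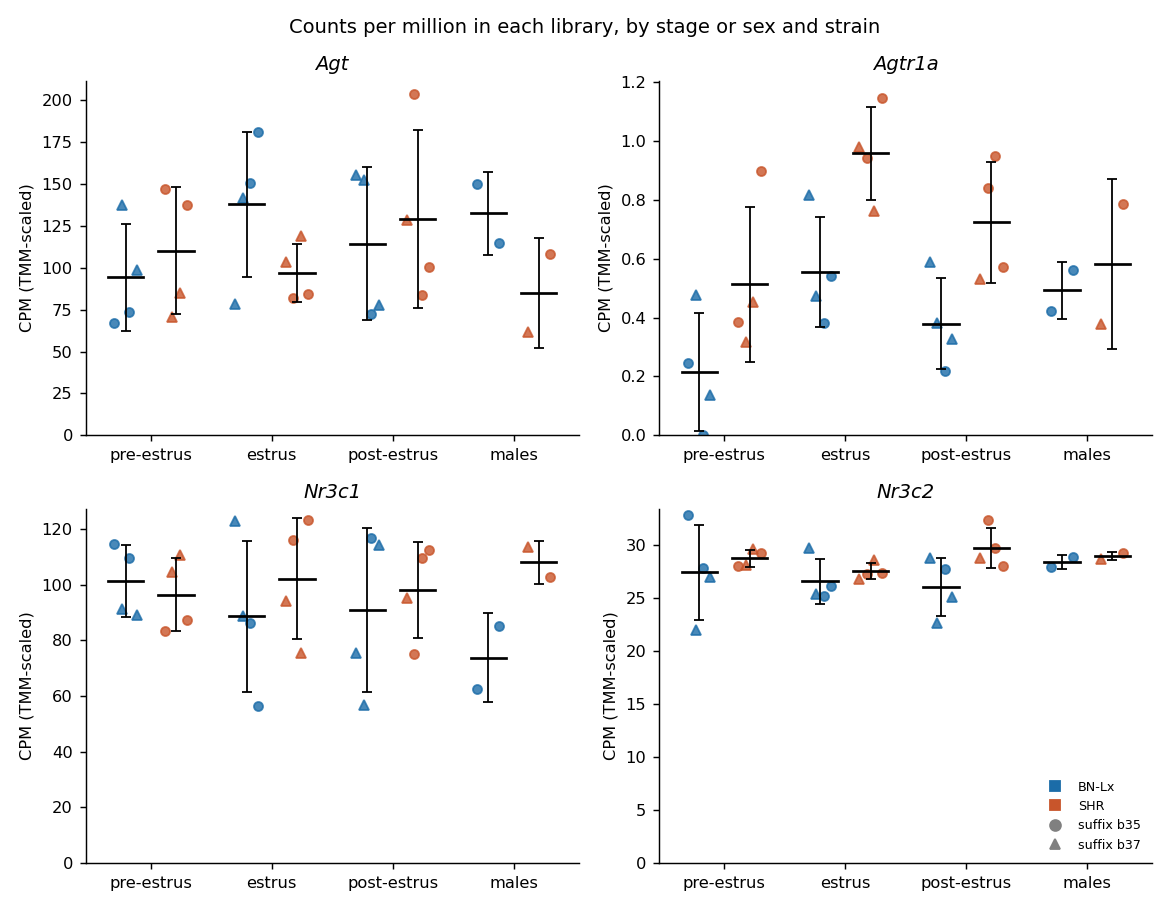
CPM (TMM-scaled, linear axes from 0) of each gene in all 28 libraries, by stage or sex, with BN-Lx in blue and SHR in orange. Circles are b35 and triangles b37 libraries, horizontal lines are group means and bars are 1 SD; Agtr1a has its highest mean in SHR estrus females (0.958 CPM), while the Nr3c2 points lie between 21.9 and 32.9 CPM.

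None of the 4 genes passed the test for a difference between SHR and BN-Lx females, against 9.51% of the 18134 genes tested (edgeR quasi-likelihood test, Benjamini-Hochberg adjusted p under 0.05, the 3 stages weighted equally). The receptor gene Agtr1a came nearest, with a level about 2-fold higher in SHR. The fitted levels of Agt, Nr3c1 and Nr3c2 in SHR were 0.971-fold, 1.05-fold and 1.07-fold those in BN-Lx. On the TPM scale the mean of SHR females was the higher for all 4 genes. For Nr3c1 it was 11.3 against 9.53 TPM in BN-Lx, for Nr3c2 6.55 against 5.24 and for Agtr1a 0.203 against 0.0925. These TPM differences were not tested.

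Agt was at 67.1, 73.7, 98.5 and 137.6 CPM in the BN-Lx females at pre-estrus, at 78.1, 141.5, 150.8 and 181.0 CPM at estrus, and at 72.6, 77.5, 152.7 and 155.2 CPM at post-estrus. In SHR females Agt was at 70.7, 84.9, 137.5 and 147.3 CPM at pre-estrus, at 81.8, 84.2, 103.5 and 118.8 CPM at estrus, and at 83.9, 100.6, 128.8 and 204.0 CPM at post-estrus. The BN-Lx post-estrus group split into a low and a high pair, the SHR estrus group spread least, and the strains overlapped at every stage. BN-Lx females averaged 115.5 ± 41.2 CPM and SHR females 112.2 ± 37.9 CPM (SD, n = 12 each). The log2 fold change, SHR over BN-Lx, was -0.04 ± 0.19 (SE), with a 95% interval from -0.44 to 0.36 (edgeR, adjusted p = 0.95). On the TPM scale, which sets the library total differently, the order of the means was the other way, at 30.5 ± 10.2 TPM in BN-Lx and 35.8 ± 13.3 TPM in SHR (SD, n = 12 each); the length of Agt was the same in every library. In males Agt was at 115.1 and 150.0 CPM in BN-Lx and at 61.8 and 108.2 CPM in SHR, which did not overlap, with a log2 fold change of -0.63 ± 0.48 (SE; edgeR, adjusted p = 0.625; 0.8% of genes were called in males, and 58% of all genes did not overlap between the 2 male pairs).

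Agtr1a had 0, 9, 11 and 30 counts in the BN-Lx females at pre-estrus, 24, 32, 33 and 47 at estrus, and 12, 13, 32 and 32 at post-estrus. In SHR females it had 15, 29, 30 and 60 counts at pre-estrus, 40, 43, 53 and 66 at estrus, and 33, 33, 58 and 61 at post-estrus. The library with no count was BN-Lx pre-estrus replicate 7a, where 3 counts would be 0.0771 CPM. On the CPM scale 11 of 12 SHR females lay above the BN-Lx median of 0.382 CPM and 6 lay above the highest BN-Lx female, so the strains overlapped. The share of all genes with a like separation was not computed. BN-Lx females averaged 0.383 ± 0.219 CPM and SHR females 0.732 ± 0.270 CPM (SD, n = 12 each). The log2 fold change was 0.99 ± 0.32 (SE; 95% interval 0.32 to 1.66), or 1.99-fold (interval 1.25 to 3.16). The adjusted p was 0.0719 with edgeR, 0.00769 with DESeq2 and 0.0238 with limma, so the call depends on the tool, and the latter 2 tools each called 12.1% of genes. In absolute size the edgeR fold change of Agtr1a exceeded that of 93.4% of the genes tested, whatever their level. Only 17.8% of these genes had a lower mean CPM, and genes of like level were not compared apart.

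The higher level of Agtr1a in SHR had the same direction at all 3 stages, and none passed the test alone. SHR was 2.33-fold higher at pre-estrus (interval 1.03 to 5.29), 1.73-fold at estrus (0.798 to 3.77) and 1.93-fold at post-estrus (0.850 to 4.39), with edgeR adjusted p of 0.451, 0.764 and 0.558; between 2.24% and 2.5% of genes were called at a stage. The suffix groups gave unequal values: 1.78 on the log2 scale in the b35 libraries alone (edgeR, adjusted p = 0.0615) and 0.35 in the b37 libraries alone (adjusted p = 0.839). Whether the suffix groups differ was not tested. A single library also decided the edgeR call: without BN-Lx pre-estrus replicate 5 the log2 fold change was 1.19 (edgeR, adjusted p = 0.0174, with 9.09% of genes called), and over all 24 analyses that left out 1 female library it ran from 0.81 to 1.19. In males Agtr1a was at 0.423 and 0.561 CPM in BN-Lx and at 0.378 and 0.787 CPM in SHR, which overlapped.

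**Figure D2:**
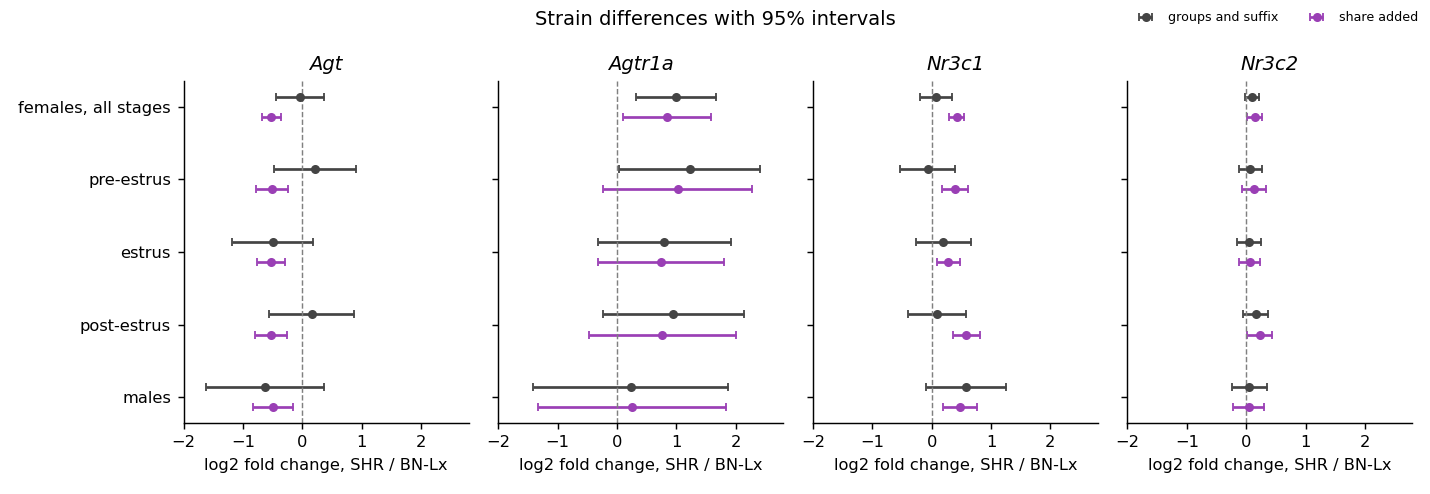
Log2 fold changes of SHR over BN-Lx for each gene in females over all stages, at each stage and in males, with 95% intervals. Grey points come from the model with groups and suffix and purple points from the model with the share of the most abundant gene added; the purple intervals of Agt lie below 0 and those of Nr3c1 above 0 in every comparison, while those of Agtr1a are wide in both models.

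Nr3c1, the glucocorticoid receptor gene, was at 89.0, 91.2, 109.7 and 114.7 CPM in BN-Lx pre-estrus, at 56.3, 86.3, 88.8 and 122.8 CPM in BN-Lx estrus, and at 56.7, 75.6, 114.2 and 116.7 CPM in BN-Lx post-estrus females. In SHR females Nr3c1 was at 83.3, 87.3, 104.4 and 110.5 CPM at pre-estrus, at 75.3, 94.2, 116.0 and 123.1 CPM at estrus, and at 74.9, 95.1, 109.5 and 112.6 CPM at post-estrus. The strains overlapped at every stage, and the lowest 2 female libraries were both BN-Lx. BN-Lx females averaged 93.5 ± 22.8 CPM and SHR females 98.9 ± 16.2 CPM (SD, n = 12 each), with a log2 fold change of 0.07 ± 0.13 (SE; 95% interval -0.20 to 0.35; edgeR, adjusted p = 0.836). In males Nr3c1 was at 62.5 and 85.0 CPM in the BN-Lx pair and at 102.6 and 113.4 CPM in the SHR pair. The pairs did not overlap, nor did they for 58% of all genes. The log2 fold change of Nr3c1 was 0.58 ± 0.32 (SE; edgeR, adjusted p = 0.544).

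Nr3c2, the mineralocorticoid receptor gene, was the steadiest of the 4. In BN-Lx females its lowest, median and highest levels were 21.9, 26.5 and 32.9 CPM, and in SHR females 26.8, 28.3 and 32.4 CPM. All 12 SHR females lay above the BN-Lx median, 6 of 12 BN-Lx females lay below the lowest SHR female, and the BN-Lx values spread more widely. How many of all genes separate the females to this degree was not counted. BN-Lx averaged 26.7 ± 3.02 CPM and SHR 28.6 ± 1.48 CPM (SD, n = 12 each), and the log2 fold change was 0.09 ± 0.06 (SE; 95% interval -0.02 to 0.21; edgeR, adjusted p = 0.379). In this fit the interval of the fold change ran from 0.984 to 1.16. Counts of Nr3c1 per count of Nr3c2, the balance of the 2 corticosteroid receptors, were 3.50 ± 0.755 in BN-Lx and 3.47 ± 0.653 in SHR females (SD, n = 12 each). In males the ratio averaged 2.59 ± 0.503 in BN-Lx and 3.74 ± 0.308 in SHR (SD, n = 2 each).

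Across the estrous cycle no gene of the 18134 tested passed the edgeR test for any difference among the 3 stages over both strains (0% called; 291 genes had an unadjusted p under 0.05, and DESeq2 called 2 genes and limma 0). Among the 4 genes Agtr1a had the smallest p, 0.0333 with edgeR before adjustment and 1 after it. Agtr1a averaged lowest at pre-estrus and highest at estrus in both strains. In BN-Lx the means were 0.215 ± 0.202 CPM at pre-estrus, 0.553 ± 0.187 CPM at estrus and 0.379 ± 0.155 CPM at post-estrus (SD, n = 4 each). In SHR they were 0.513 ± 0.262, 0.958 ± 0.157 and 0.724 ± 0.205 CPM (SD, n = 4 each). Adjacent stages overlapped in both strains. The estimate for estrus over pre-estrus was 1.11 ± 0.39 on the log2 scale over both strains (SE; 95% interval 0.29 to 1.92), and post-estrus over estrus was -0.47 ± 0.39 (interval -1.27 to 0.33).

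The other 3 genes had unadjusted edgeR p from 0.54 to 0.904. Averaged over strains, Agt was at 102.2 ± 33.5 CPM at pre-estrus, 117.5 ± 37.5 CPM at estrus and 121.9 ± 46.5 CPM at post-estrus (SD, n = 8 each). Nr3c1 was at 98.8 ± 12.3, 95.4 ± 23.9 and 94.4 ± 22.7 CPM at the same stages. For Nr3c2 the intervals of all 3 stage differences over both strains lay between -0.20 and 0.18 on the log2 scale. No gene of the 4 passed the test of strain by stage interaction, with unadjusted edgeR p from 0.283 for Agt to 0.856 for Agtr1a. Of all 18134 genes 0% were called for this interaction by edgeR (268 had an unadjusted p under 0.05, DESeq2 called 1 gene and limma 0). The count differed by suffix: in the 15 b35 libraries alone, which hold 1 BN-Lx post-estrus library, edgeR called the interaction for 30% of 18602 genes, with Agt (adjusted p = 0.0258) and Nr3c1 (adjusted p = 0.0407) among them, and a stage difference in BN-Lx for 15.5%, with none of the 4. In the b37 libraries alone it called 1 gene for the interaction and 0 for stage in BN-Lx. The b37 libraries in turn hold 1 SHR post-estrus library, so a stage arm of 1 library is present under either suffix. The comparison of males with females called 0.0331% of genes and none of these 4, with log2 differences from -0.12 to 0.10.

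**Figure D3:**
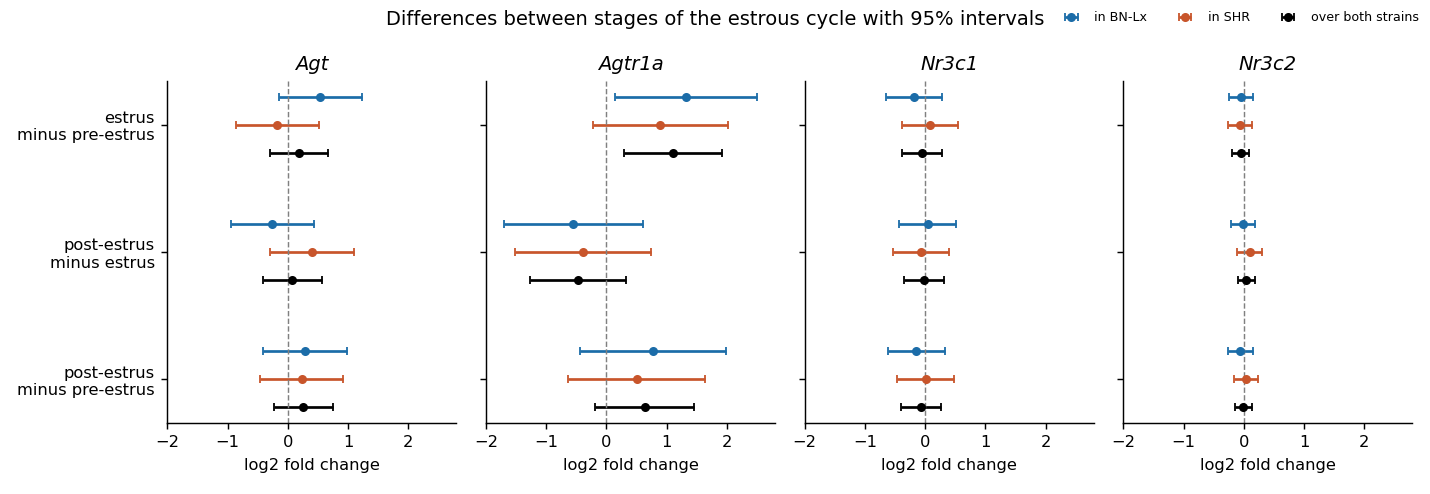
Log2 differences between stages for each gene in BN-Lx (blue), SHR (orange) and over both strains (black), with 95% intervals from the edgeR model. The estrus minus pre-estrus difference of Agtr1a over both strains is 1.11 with an interval above 0, while the stage intervals of the other 3 genes all include 0.

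Agt and Nr3c1 moved in opposite directions from library to library. Their log2 CPM levels had a Pearson r of -0.838 and a Spearman rho of -0.863 over the 28 libraries (permutation p = 1e-05 for each, the smallest that 100000 resamples give; adjusted over 10 relations, 5e-05). Without the 2 libraries farthest from the median of Agt r was -0.847. Within groups r was -0.875 in BN-Lx females, -0.83 in SHR females, -0.874 in b35 and -0.799 in b37 libraries. Both levels are parts of the same library total, so they share its composition. How often other pairs of genes reach such an r was not counted. A relation of the pair beyond the share of the most abundant gene was not tested. Counts of Agt per count of Nr3c1 ran from 0.585 to 3.21 within BN-Lx females alone.

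**Figure D4:**
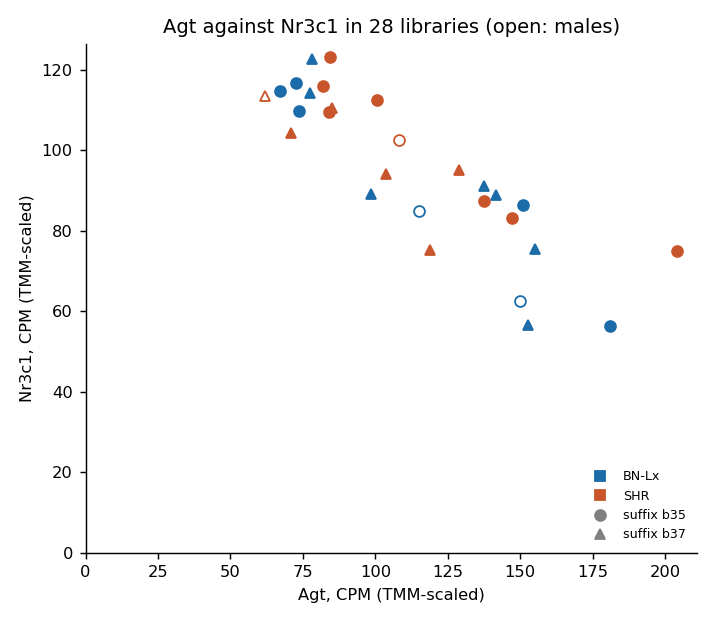
Agt against Nr3c1, in CPM, in each of the 28 libraries, with BN-Lx in blue, SHR in orange, males as open symbols, circles for b35 and triangles for b37. Libraries with much Agt have little Nr3c1 in both strains (r = -0.838 on the log2 scale).

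Both levels followed the share of gene counts taken by the most abundant gene. Agt was lower in libraries with a larger share, with r = -0.799 and rho = -0.778 (permutation p = 1e-05 each, adjusted 5e-05; -0.748 without the 2 libraries of the most extreme share). Within BN-Lx females r was -0.953, within SHR females -0.928, within b35 libraries -0.907 and within b37 libraries -0.597. Nr3c1 was higher in libraries with a larger share, with r = 0.662 and rho = 0.75 (permutation p = 0.00013 and 2e-05, adjusted 0.000433 and 6.67e-05; 0.647 without the 2 extreme libraries). Its r was 0.905 in BN-Lx females, 0.857 in SHR females, 0.677 in b35 and 0.699 in b37 libraries. For Nr3c2 the relation over all libraries was near 0 (r = -0.00024, rho = 0.06, permutation p = 0.999 and 0.758), and its r was 0.547 in BN-Lx and -0.551 in SHR females. For Agtr1a r was -0.479 (permutation p = 0.0104, adjusted 0.0259) and rho -0.402 (adjusted 0.0876). The r of Agtr1a was -0.413 in BN-Lx females, -0.052 in SHR females, -0.561 in b35 and -0.216 in b37 libraries. The library with no Agtr1a count, BN-Lx pre-estrus replicate 7a, had a share of 34.7%, and its weight in r was not tested.

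**Figure D5:**
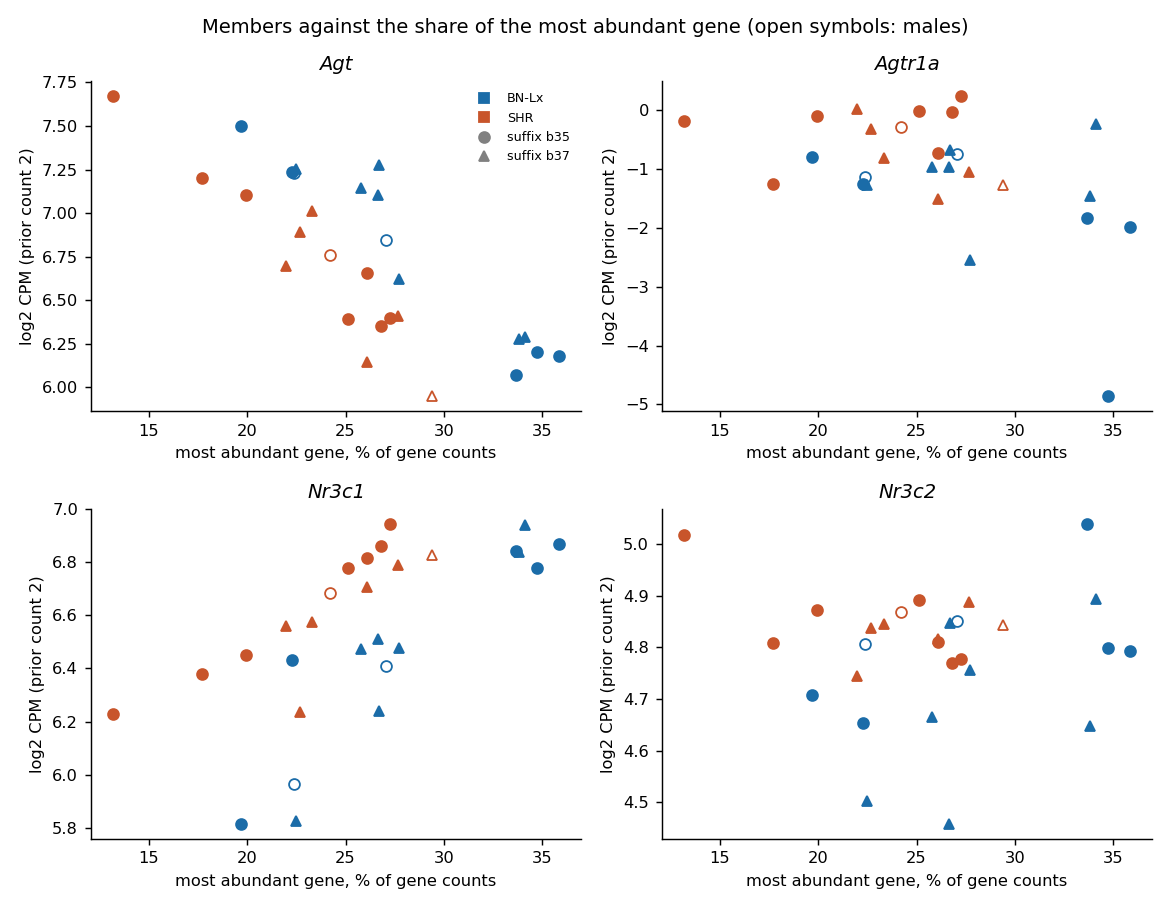
Log2 CPM (prior count 2) of each gene against the percentage of gene counts in the most abundant gene, for 28 libraries, with BN-Lx in blue, SHR in orange, males as open symbols, circles for b35 and triangles for b37. Agt declines and Nr3c1 climbs with the share (r = -0.799 and 0.662), and in the fit with the share Agt in SHR females is 0.696-fold the BN-Lx level.

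The mean share was lower in SHR than in BN-Lx females, as given above, and a fit with it as a further term was compared with the first. By group the means, BN-Lx first, were 30.7% and 22.9% at pre-estrus, 25.5% and 24.7% at estrus and 29.7% and 21.9% at post-estrus, and in males 24.7% and 26.8%, the other way. These strain differences in the share were not tested. In that fit Agt changed by -0.93 ± 0.07 and Nr3c1 by 0.60 ± 0.06 on the log2 scale for each 10 percentage points of the share (SE; edgeR, adjusted p = 2.35e-09 and 1.75e-08). Such a slope was called for 56.6% of all genes, so it is common. The slope of Agt was lower than that of 95.1% of genes. No such slope was called for Agtr1a, at -0.29 ± 0.33 (SE; edgeR, adjusted p = 0.48), or for Nr3c2, at 0.08 ± 0.06 (SE; adjusted p = 0.218). The residual SD of log2 CPM fell from 0.507 to 0.176 for Agt and from 0.343 to 0.142 for Nr3c1 once the share was in the model, and was 0.794 and 0.785 for Agtr1a and 0.125 and 0.121 for Nr3c2.

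At equal share Agt was lower and Nr3c1 higher in SHR than in BN-Lx females. Treating the fit with the share as a result of its own was chosen after seeing the data. Agt had a log2 fold change of -0.52 ± 0.08 (SE; 95% interval -0.68 to -0.36; 0.696-fold; edgeR, adjusted p = 2.16e-05). With the share of the 8 most abundant genes as the term in its place, chosen after seeing the data, the value for Agt was -0.83 (edgeR, adjusted p = 0.00292; 25.2% of genes called). Nr3c1 had a log2 fold change of 0.42 ± 0.06 (SE; interval 0.29 to 0.55; 1.34-fold; edgeR, adjusted p = 3.63e-05). In this fit 32.6% of all genes were called between the strains, 14.8% lower and 17.8% higher, so 2 called members of 4 is to be read against a large background. The Agt difference was lower than that of 90.3% of genes and the Nr3c1 difference higher than that of 90.0%. Nr3c2 was at 0.14 ± 0.06 (SE; edgeR, adjusted p = 0.0751) and Agtr1a at 0.84 ± 0.36 (SE; adjusted p = 0.0817). The share is itself a measurement of the same libraries that differs between the strains, and its part in either estimate was not tested.

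In the fit with the share edgeR called 0% of genes for a stage difference over both strains, and 0% for the strain by stage interaction. Before adjustment the edgeR p for stage ran from 0.0256 for Agtr1a to 0.802 for Nr3c2 among the 4 genes. The equal-share strain differences had 1 direction at every stage. Agt had log2 fold changes of -0.51, -0.53 and -0.52 at pre-estrus, estrus and post-estrus (edgeR, adjusted p = 0.0156, 0.00474 and 0.0107). Nr3c1 had 0.40, 0.28 and 0.58 (edgeR, adjusted p = 0.0215, 0.0781 and 0.00137). The called share of all genes at these stages was 8.66%, 6.98% and 12.5%. In males, at 2 libraries a strain, the estimates were -0.50 for Agt (edgeR, adjusted p = 0.0861) and 0.48 for Nr3c1 (adjusted p = 0.0483), with 4.18% of genes called. Within a suffix the estimates in females were -0.44 and -0.53 for Agt (edgeR, adjusted p = 0.0402 in b35 and 0.0591 in b37) and 0.47 and 0.38 for Nr3c1 (adjusted p = 0.0518 and 0.0581), with 5.42% and 4.43% of genes called.

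A comparison without the extra term was limited to libraries with a share that both strains cover, males included (19.7% to 29.4%). Among the females in it the highest share was 27.71% in BN-Lx and 27.66% in SHR. In females over all stages its values were close to those at equal share. At pre-estrus both of its values were smaller in size than at equal share, as given in the last section. The comparison selects libraries on the same share, so it is not separate support. It held 7 BN-Lx and 10 SHR females, with mean shares of 24.5% ± 2.99 and 24.7% ± 2.58 (SD). Agt was at 145.3 ± 24.9 CPM in those BN-Lx females, from 98.5 to 181.0, and at 99.5 ± 22.4 CPM in the SHR females, from 70.7 to 137.5. Nr3c1 was at 77.7 ± 15.3 CPM, from 56.3 to 91.2, in BN-Lx and at 102.8 ± 14.6 CPM, from 75.3 to 123.1, in SHR. Both genes overlapped between the strains. Counts of Nr3c1 per count of Nr3c2 were 3.10 ± 0.694 in these BN-Lx and 3.64 ± 0.561 in these SHR females (SD). The log2 fold changes were -0.54 for Agt and 0.41 for Nr3c1 (edgeR, adjusted p = 0.0238 and 0.0361; 18.4% of 17778 genes were called). In TPM the same libraries were at 36.8 ± 8.14 and 32.5 ± 10.3 for Agt and at 7.60 ± 3.22 and 11.9 ± 2.03 for Nr3c1, BN-Lx first, so the Agt means lay closer together under the TPM scaling. The 5 BN-Lx females above that range were at 67.1 to 78.1 CPM for Agt and 109.7 to 122.8 CPM for Nr3c1. The 2 SHR females below it were at 147.3 and 204.0 CPM for Agt and at 83.3 and 74.9 CPM for Nr3c1.

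Likeness to each member was searched among 13994 other genes that averaged 1 CPM or more (13995 for Agtr1a, itself below that level). The gene whose log2 CPM was most like Agt over the 28 libraries was ENSRNOG00000022054 (Pearson r = 0.967). For Nr3c1 it was ENSRNOG00000023202 (r = 0.979). The nearest gene to Agtr1a was ENSRNOG00000053410 (r = 0.761) and to Nr3c2 ENSRNOG00000004464 (r = 0.734). These are descriptions of likeness over libraries that share a composition, and their median over all genes lay between -0.021 and 0.044.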

How the data were processed

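RNA of rat brain was sequenced as stranded, ribosomal-RNA-depleted paired-end libraries. Per the labels' protocols the RNA came from whole brain; that text speaks of male rats, whereas the sample labels, used for grouping, name females and males. The tools cutadapt and RSEM are named in the submitters' processing notes. Versions, aligner, build and annotation were not given in the sources used here. Deposited by the authors were RSEM expected counts per gene, unnormalized, and TPM values, which correct for length. All 112 member values were whole numbers, and each member has 1 transcript per the file headers.

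Expected counts were rounded, the 92 spike-in rows left out, and genes kept by filterByExpr (count minimum 10; 18134 genes). All 28 libraries entered 1 robust quasi-likelihood fit in edgeR 4.0.16 (R 4.3.3, TMM factors) with a term per strain-by-stage or sex group and 1 for the suffix (19 residual degrees of freedom). Benjamini-Hochberg adjustment ran over all genes, threshold 0.05; standard errors and 95% intervals come from the fitted weights and the quasi-likelihood variance and are approximate. The fit was run on simulated counts, drawn gene by gene with no effect of the share. That run therefore does not test how the fit deals with the share. Alternatives used DESeq2 1.42.0, limma 3.58.1, RLE factors, no filter, no suffix term, 1 suffix alone, replicate numbers, females or males alone, the share covariate and each library left out. Treating the share fit as a result of its own and the limit to a common range of shares were chosen after seeing the data. The members and 12 gene lists were chosen with earlier results of these data known; the 101 list entries matched 0 identifiers. Named genes were the 4 members and the most alike gene of each. The p-values of the fits weigh a difference against the spread between libraries within groups. The permutation p-values come from shuffling all 28 libraries, whatever their strain, sex or suffix. No sequence is printed.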

Additional observations from a re-analysis of the deposited data

How the results depend on the processing

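The lack of an edgeR call for Agt, Nr3c1 and Nr3c2 between SHR and BN-Lx females held under RLE factors, DESeq2, limma, no filter, no suffix term and females alone, and ended for Agt and Nr3c1 with the share as covariate (log2 -0.522 and 0.421; edgeR adjusted p 2.16e-05 and 3.63e-05) or in the common range of shares (-0.537 and 0.413). Agtr1a was called by DESeq2 (0.975) and limma (1.046). Leaving out 1 female library moved Agt from -0.145 to 0.031, Agtr1a from 0.805 to 1.19, Nr3c1 from 0.003 to 0.138 and Nr3c2 from 0.07 to 0.121. Agt changed sign without BN-Lx estrus replicate 9 (0.023), post-estrus replicate 3 (0.015) or 4 (0.011), pre-estrus replicate 5 (0.028), SHR post-estrus replicate 6 (0.005), and pre-estrus replicate 11 (0.031) or 12 (0.006). In b35 libraries alone Agt was at 0.285, pre-estrus Nr3c2 at -0.081, post-estrus Nr3c1 at -0.237 and the sex difference of Agt at 0.198, and the strain by stage interaction was called for Agt (edgeR adjusted p 0.0258) and Nr3c1 (0.0407) among 5585 genes (30%), against 0 in all libraries; there 2886 genes were called for stage in BN-Lx and 96 for stage over both strains. With the share in the model the b35 interaction was called for 141 genes. In b37 libraries alone pre-estrus Agt and Nr3c1 were at -0.58 and 0.273, estrus Agt and Nr3c1 at 0.033 and -0.308, and post-estrus Agt at -0.034. With the share as covariate Agt and Nr3c1 turned to -0.511 and 0.398 at pre-estrus and Agt to -0.522 at post-estrus; in the common range of shares these were -0.332, 0.151 and -0.619, and the sex difference of Agtr1a -0.231.

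At equal share, leaving out 1 female library gave -0.562 to -0.473 for Agt and 0.357 to 0.455 for Nr3c1, called in 24 of 24 cases each. It gave 0.726 to 1.12 for Agtr1a and 0.101 to 0.173 for Nr3c2. Agtr1a was called with DESeq2 (0.846; 35% of genes called) and without BN-Lx pre-estrus replicate 5 (1.12, edgeR adjusted p 0.0222; 29.5%), and ran from 0.411 to 1.731 over the other settings. Nr3c2 was called with limma (0.162; 35.3% of genes called), in the common range of shares (0.176; 32.5%) and, with 29.2% to 34.8% of genes called, without BN-Lx post-estrus replicate 3 (0.173), BN-Lx pre-estrus replicate 3 (0.152), SHR post-estrus replicate 13 (0.147) or 8 (0.165), and was at -0.05 in b35 libraries alone. Nr3c1 missed the threshold in b35 (0.469) and b37 (0.381) libraries alone, as did Agt in b37 (-0.534). The common range gave -0.534 and 0.392 with the covariate. With the share of the 8 most abundant genes the values were -0.828 and 0.506.

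The title's replicate numbers gave no sign that they pair the samples, though this was not tested. None of 8 same-numbered pairs within a strain had a correlation of deviations over 0.1 (median -0.161). By the number in the description 13 of 30 pairs did (median 0.033, highest 0.471), and whether that number groups the samples was not tested. Each description number holds 1 strain only, so the strain difference cannot be estimated with it as a block. All SHR pre-estrus libraries carry the same number, as do both males of each strain. Whether libraries with the same number are independent was not tested. With the title number as a replicate block the female strain difference was -0.108 for Agt, 1.464 for Agtr1a, 0.112 for Nr3c1 and 0.164 for Nr3c2, none called, and 150 genes were called in place of 1724. At equal share the block gave -0.443 for Agt and 0.389 for Nr3c1 (edgeR adjusted p 0.0973 and 0.097), with 647 genes called in place of 5905. Under this block pre-estrus Agt was at -0.028, male Agtr1a at -0.182, and the sex differences of Agt and Nr3c2 at 1.46 and -0.177; with the description number that of Agtr1a was -0.247. Leaving out 1 library also gave, as ranges that cross 0: sex difference of Agtr1a -0.224 to 0.373 and of Agt -0.317 to 0.11, male Agtr1a -0.521 to 0.674, post-estrus Nr3c1 -0.065 to 0.255 and Agt -0.12 to 0.331, and pre-estrus Nr3c2 -0.02 to 0.15 and Nr3c1 -0.147 to 0.014. A male arm of 1 library is assumed to vary like the other groups. The b37 libraries alone called 474 genes in the first fit and 798 at equal share, b35 alone 1009 at equal share, and the common range 3263 without the covariate. Where a setting moved a value, the cause was not tested. Depth bears on Agtr1a, where the library with no count allows up to 0.0771 CPM.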
